A study of Mus musculus with 16 samples.

Results

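Glycogen synthesis and breakdown were followed through 9 genes in brown adipose tissue (BAT) and gonadal white adipose tissue (gWAT) of mice lacking phosphoglycerate mutase 1 (Pgam1) in adipocytes. The members were Gys1, Gys2, Gbe1, Ugp2, Pygl, Pygb, Ppp1r3b, Ppp1r3c and Stbd1, found on the array through the RefSeq accessions of its probes, and they are 9 of the 22911 genes that the array carries under a symbol. Pgam1 is an enzyme of lower glycolysis, and the study asked how its loss from fat changes BAT and white fat. Total RNA of whole tissue was labelled with a single dye and read on 16 Agilent arrays, 4 for each genotype in each tissue. The knockout mice (Adipoq-Cre with floxed Pgam1, named Adipo-Pgam1 KO and called KO in what follows) carried a Cre recombinase that is made under the adiponectin promoter and so acts in adipocytes. The other cells of the tissue keep the gene and also contribute RNA. The controls were littermates, which the labels call wild-type and the methods give as Pgam1 flox/flox without Cre, so both genotypes carry floxed alleles. All animals were males of the C57BL/6NCrSlc strain, kept at room temperature on normal chow. Their age was 16 weeks, apart from the KO animals behind replicate 4 of BAT and of gWAT, which were 14 weeks old. The labels do not say which BAT and gWAT arrays came from the same animal, so p-values measure the spread between arrays.

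Glycogen is a branched polymer of glucose that most cells keep as a short-term store, largest in liver and skeletal muscle and small in fat. UDP-glucose, made by Ugp2, is joined into chains by glycogen synthase, of which Gys1 is the form of muscle and most other tissues and Gys2 the form of liver, also made in fat. Gbe1 adds the branches, and glycogen phosphorylase, of which Pygl is the liver form and Pygb the brain form, releases glucose-1-phosphate from the chain ends. Ppp1r3b and Ppp1r3c bring protein phosphatase 1 to glycogen, where it switches the synthase on and the phosphorylase off. Stbd1 binds glycogen through a starch-binding domain and tethers it to membranes. BAT is known to fill and empty its glycogen store with feeding and thermogenic activity.

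The 250 bases before the RefSeq start site (assembly GRCm38.p6) are shown for 5 members, written 5′ to 3′ on the gene's strand. They are Stbd1, Gbe1, Ugp2 and Pygl, whose levels were all higher in the gWAT arrays labelled KO, and Ppp1r3c, which had the largest fall in BAT. Capitals mark every match on either strand to 1 of 3 short motifs. The E-box reads CACGTG. The GC box, where Sp1-type factors bind, reads GGGCGG. The third motif, CCAAT, is a common element of promoters. Ugp2 has 2 listed start sites and is given with both. The windows are chr5:92602801-92603050 for Stbd1 (plus strand), chr16:70313699-70313948 for Gbe1 (plus strand), chr11:21370630-21370879 and chr11:21371268-21371517 for Ugp2 (minus strand), chr12:70227684-70227933 for Pygl (minus strand) and chr19:36736605-36736854 for Ppp1r3c (minus strand).
Stbd1: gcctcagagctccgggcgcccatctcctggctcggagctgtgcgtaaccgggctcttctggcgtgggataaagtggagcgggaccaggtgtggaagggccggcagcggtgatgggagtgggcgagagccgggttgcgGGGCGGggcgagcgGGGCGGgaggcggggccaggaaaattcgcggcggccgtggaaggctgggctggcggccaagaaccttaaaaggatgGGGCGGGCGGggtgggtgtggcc
Gbe1: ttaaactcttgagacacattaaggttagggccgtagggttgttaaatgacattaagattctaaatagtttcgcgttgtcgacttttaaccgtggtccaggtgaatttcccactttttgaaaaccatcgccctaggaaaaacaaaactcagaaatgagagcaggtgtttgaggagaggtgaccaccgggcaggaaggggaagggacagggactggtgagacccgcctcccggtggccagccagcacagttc
Ugp2, nearer start: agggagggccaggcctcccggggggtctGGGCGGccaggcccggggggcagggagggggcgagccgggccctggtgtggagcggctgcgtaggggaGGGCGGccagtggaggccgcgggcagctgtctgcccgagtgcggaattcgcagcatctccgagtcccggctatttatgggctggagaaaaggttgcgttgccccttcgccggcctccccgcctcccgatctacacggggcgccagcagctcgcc
Ugp2, farther start: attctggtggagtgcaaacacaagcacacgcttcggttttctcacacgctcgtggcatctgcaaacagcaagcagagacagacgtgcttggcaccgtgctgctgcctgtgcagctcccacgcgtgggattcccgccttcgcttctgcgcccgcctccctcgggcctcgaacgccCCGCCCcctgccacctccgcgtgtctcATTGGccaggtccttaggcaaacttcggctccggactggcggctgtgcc
Pygl: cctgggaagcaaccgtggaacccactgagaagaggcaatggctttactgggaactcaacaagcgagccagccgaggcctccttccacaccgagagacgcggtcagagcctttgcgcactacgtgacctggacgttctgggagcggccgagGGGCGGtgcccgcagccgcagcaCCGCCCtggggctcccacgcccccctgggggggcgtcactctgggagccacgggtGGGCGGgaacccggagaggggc
Ppp1r3c: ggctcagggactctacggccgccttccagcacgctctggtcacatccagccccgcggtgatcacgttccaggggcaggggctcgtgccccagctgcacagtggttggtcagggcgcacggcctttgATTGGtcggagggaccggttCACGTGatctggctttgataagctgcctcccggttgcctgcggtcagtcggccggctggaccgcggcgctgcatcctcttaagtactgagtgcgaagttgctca

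Windows were at hand for 7 of the 9 members, Gys1 and Pygb included. Stbd1 held 4 matches to the GC box, of which the pair nearest the start overlap each other, and Pygl held 3. The window of Gbe1 held none of the 3 motifs. Ppp1r3c was the only one of the 7 with an E-box, which began 104 bases before its start, and 6.02% of the 32851 promoter windows in the table held one. The GC box was found in 4 of the 7 members (Gys1, Pygl, Stbd1 and Ugp2) against 32.7% of all windows, and the CCAAT box in 3 (Gys1, Ppp1r3c and Ugp2) against 33.8%. Members are counted by gene, with a match in either window of Ugp2, whereas the shares are per window. The CCAAT box of Ugp2 lay only in its farther window. A TATA box (TATAAA) was in none of the 7, against 12.4% of all windows, and TGACG, the core of a cyclic AMP response element, was in Pygb and Pygl, against 17.8%. A match is a description of the letters and not of a binding site.

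The targeted gene was read first. In BAT, the log2 level of Pgam1 (signal over the 75th percentile of the same array) was 7.94, 7.93, 8.07 and 7.82 on the 4 control arrays and 6.20, 6.12, 6.04 and 6.43 on the 4 KO arrays, a log2 change of -1.74. In gWAT it was 5.07, 5.16, 5.67 and 5.56 on the control arrays and 6.50, 6.42, 6.38 and 5.95 on those labelled KO. The targeted gene thus stood higher by 0.95 where the label says KO (adjusted p = 0.014), against what the label would give. The position of the deletion relative to the probe is not known here, and every direction given for gWAT rests on the label. The arrays sat on 3 slides, and most control arrays of a tissue lay on a different slide from its KO arrays. The share of probes well above background ran from 50% to 62.2% of an array. The 75th percentile itself lay between 401 and 451 on BAT control arrays and between 650.2 and 916 on BAT arrays of KO mice.

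Markers of several cell types also differed in level between the genotypes. In BAT, the summed linear level of 6 adipocyte markers ranged from 2290.0 to 2520.0 on control arrays and from 752 to 1040.0 on KO arrays, and that of 7 macrophage markers from 27.6 to 37.7 and from 87.8 to 129. Skeletal muscle markers summed to between 0.662 and 1.44 in BAT controls and to between 1.72 and 125 in KO mice. Ckm, Actn3, Myh4 and Myh1 were not well above background on any BAT control array, and each was on 2 of the 4 KO arrays. In gWAT the 9 muscle markers summed to between 3.91 and 25.5 in controls and to between 30.3 and 58.6 on arrays labelled KO, where Ckm, Myh4 and Myh1 were not well above background on any array. Acta1 was the brightest of the 9 on every gWAT array, with a mean log2 level of 3.28 in controls and 5.48 on arrays labelled KO. Of the 6 muscle markers tested in gWAT, 0 passed, and 4 changed below 0 and 2 above. In gWAT, 6 brown adipocyte markers summed to between 6.03 and 10.8 in controls, where Ucp1 was not well above background on any array, and to between 48.6 and 141 on arrays labelled KO. Of these markers, Cpt1b was higher by 4.23 and Cidea by 3.41 on the gWAT arrays labelled KO, without overlap. In BAT they changed by -1.70 and -1.23. Cidea was the brightest of the 6 on every gWAT array. Of the 4 brown adipocyte markers tested in gWAT, 3 passed as higher, and Ppargc1a changed by -0.52 (limma adjusted p = 0.365). Ucp1 and Dio2 did not enter that test. In BAT 5 of the 6 passed as lower, and Ppargc1a changed by 0.63 (limma adjusted p = 0.286). The adipocyte markers of gWAT lay between 2150.0 and 3400.0 and between 1830.0 and 2450.0, and the macrophage markers between 64.7 and 87.3 and between 65.4 and 176. The 4 hepatocyte markers summed to between 14.5 and 768 in gWAT of controls and to between 3.98 and 243 in gWAT labelled KO, whereas in BAT Ttr and Apoa1 were not well above background on any array. The part of these cells in the changes below was not tested, and in whole tissue fewer cells of a type and less RNA per cell cannot be told apart.

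All 9 members were well above background on all 16 arrays, so none entered a test through 1 group alone. In littermate controls, 7 members had a higher level in BAT than in gWAT, Pygb had a lower one, and Stbd1 did not pass the test. Across all genes, 66.4% passed this comparison, 35.9% as higher in BAT and 30.4% as lower. For 8 of the 9 members, and for 59.4% of all genes, the ranges of the groups were apart. The median log2 difference of the members, BAT minus gWAT, was 1.75 against 0.08 over all genes. The widest gap was that of Gys2, whose log2 level was 5.45 ± 0.15 (SD, n = 4) in BAT and 2.78 ± 0.60 (SD, n = 4) in gWAT, a difference of 2.67 (standard error, SE, 0.27, adjusted p = 7.12e-07). Gys1 differed by 1.31 (SE 0.18). Among the phosphatase subunits, Ppp1r3c differed by 2.03 (SE 0.31) and Ppp1r3b by 1.75 (SE 0.25). Gbe1, Pygl and Ugp2 differed by 1.97, 1.81 and 1.41. The phosphorylases went opposite ways, since Pygb differed by -1.69 (SE 0.22, adjusted p = 1.04e-05), with 2.18 ± 0.24 (SD, n = 4) in BAT and 3.87 ± 0.39 (SD, n = 4) in gWAT. Stbd1 stood at 2.0 ± 0.22 (SD, n = 4) in BAT and 2.02 ± 0.15 (SD, n = 4) in gWAT (difference -0.02, SE 0.20, adjusted p = 0.918).

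In BAT of KO mice, 6 of the 9 members fell (Gys1, Gys2, Gbe1, Pygb, Ppp1r3b and Ppp1r3c), 1 rose (Stbd1) and 2 did not pass the test (Ugp2 and Pygl). In this comparison 61.5% of all 14270 genes tested passed, 33.9% as lower and 27.5% as higher. Ranges were apart for 7 of the 9 members and for 57.1% of all genes. The share of members called, 77.8%, was thus little above that of all genes and is no result about them as a group. The median log2 change of the members was -0.65, against -0.08 over all genes.

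Both synthases fell in BAT. Gys1 read 4.82, 4.92, 4.82 and 4.65 on the control arrays and 3.61, 3.35, 3.34 and 3.42 on the KO arrays. Gys2 read 5.54, 5.47, 5.23 and 5.57 on the control arrays and 3.78, 3.43, 3.49 and 3.84 on the KO arrays. For either synthase every control array lay above every KO array. The log2 change was -1.38 (SE 0.10, adjusted p = 1.76e-05) for Gys1 and -1.81 (SE 0.13, adjusted p = 1.50e-05) for Gys2, which are relative expressions of 0.385 and 0.284. The branching enzyme Gbe1 fell less, from 6.38 ± 0.28 (SD, n = 4) to 5.84 ± 0.07 (SD, n = 4), a log2 change of -0.55 (SE 0.14, adjusted p = 0.00946), and its second probe changed by -0.66. The call on Gbe1 depended on the scaling, since its change was -0.31 under quantile normalization (adjusted p = 0.0885) and -0.0029 with spike-in scaling (adjusted p = 0.989). Ugp2, which supplies UDP-glucose, read 4.60, 4.40, 4.83 and 5.07 in controls and 4.22, 4.77, 4.91 and 5.15 in KO mice. These ranges overlapped over nearly their whole length (log2 change 0.04, SE 0.22, adjusted p = 0.885). Ugp2 passed as lower with Actb and Rplp0 scaling (-0.55, limma adjusted p = 0.0245) and as higher with spike-in scaling (0.58, limma adjusted p = 0.029).

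Both phosphatase-targeting subunits fell in BAT, Ppp1r3c by more than any other member. Ppp1r3c read 3.38, 4.80, 4.11 and 4.17 on the control arrays and 1.87, 1.69, 2.34 and 1.57 on the KO arrays. Its log2 change was -2.25 (SE 0.29, adjusted p = 2.17e-04), a relative expression of 0.211. Ppp1r3b went from 6.01 ± 0.27 (SD, n = 4) to 4.89 ± 0.12 (SD, n = 4), a log2 change of -1.12 (SE 0.15, adjusted p = 2.21e-04). On the breakdown side, Pygl had 7.66 ± 0.31 (SD, n = 4) in controls and 7.32 ± 0.30 (SD, n = 4) in KO mice and did not pass the test (log2 change -0.33, SE 0.19, adjusted p = 0.164). It passed as lower with Actb and Rplp0 scaling (-0.92, limma adjusted p = 0.00491) and changed by 0.21 with spike-in scaling (limma adjusted p = 0.36). Pygb changed by -0.65 (SE 0.18, adjusted p = 0.0133) and its second probe by -0.63. All 4 Pygb values of KO mice, from 1.28 to 1.99, were below the lowest control value of 2.02, and the call was lost with slide as a block (-0.49, adjusted p = 0.206) and with spike-in scaling (-0.11, adjusted p = 0.637).

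Stbd1, the glycogen-binding membrane protein, rose in BAT. It read 2.21, 1.93, 2.13 and 1.72 on the control arrays and 5.10, 4.99, 5.38 and 5.0 on the KO arrays, with no value in between. The log2 change was 3.12 (SE 0.14, adjusted p = 3.02e-06), an 8.69-fold higher level, and the second probe changed by 3.15. For each of the 7 members that passed, the exact two-sided permutation test over arrays gave p = 0.0286, the smallest that 4 arrays against 4 allow. Within slide 2, which holds all 4 KO arrays and 1 control array, the changes of the 7 ran the same way, from -2.30 for Ppp1r3c to 3.40 for Stbd1.

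**Figure D1:**
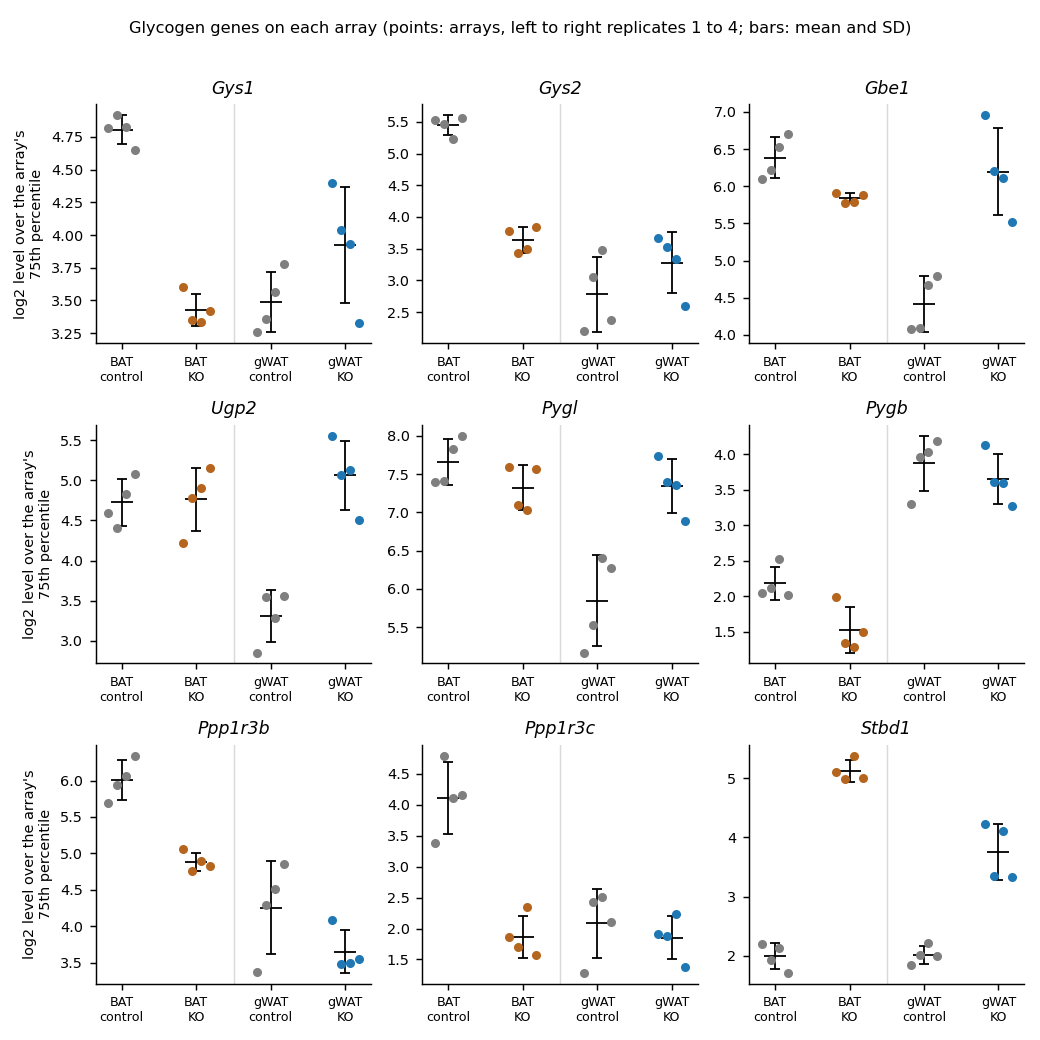
Log2 level of the 9 glycogen genes on each array, as signal over the array's 75th percentile. Points are the 4 arrays of a group, with replicates 1 to 4 from left to right, and bars are the group mean and SD. In BAT the KO arrays sit below every control array for Gys1, Gys2, Gbe1, Pygb, Ppp1r3b and Ppp1r3c and above them for Stbd1. In gWAT the arrays labelled KO sit above every control array for Gbe1, Ugp2, Pygl and Stbd1.

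In gWAT, 4 members were higher in the arrays labelled KO (Gbe1, Ugp2, Pygl and Stbd1), none passed as lower, and 5 did not pass the test. Over all 14135 genes tested in gWAT, 17.8% passed, 9.96% as higher and 7.86% as lower. Ranges were apart for 4 of the 9 members and for 24.2% of all genes. The median log2 change of the members was 0.50, against 0.05 over all genes. Most control arrays of gWAT lay on slide 2 and all arrays labelled KO on slide 3, and a limma fit with slide as a fixed block leans on the single control array of slide 3. In that fit none of the 4 passed, and Gbe1, Ugp2, Stbd1 and Ppp1r3b had an unadjusted p under 0.05. Only 184 of all 14135 genes passed in it, so the lost calls are no result about the members.

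The 4 members that rose span synthesis, breakdown and tethering. Gbe1 read 4.08, 4.09, 4.67 and 4.80 on the control arrays and 6.95, 6.21, 6.10 and 5.52 on those labelled KO, a log2 change of 1.78 (SE 0.31, adjusted p = 0.00877). Ugp2 read 2.85, 3.54, 3.29 and 3.56 and then 5.56, 5.06, 5.13 and 4.51, a log2 change of 1.75 (SE 0.24, adjusted p = 0.00431). Pygl, the liver-form phosphorylase, read 5.17, 5.53, 6.40 and 6.28 and then 7.73, 7.40, 7.36 and 6.88, a log2 change of 1.50 (SE 0.30, adjusted p = 0.0146). In each of these genes the lowest array labelled KO was replicate 4, from the mouse of 14 weeks, and it still lay above the highest control array. Stbd1 read 1.85, 2.01, 2.22 and 2.0 on the control arrays and 4.22, 3.35, 4.11 and 3.34 on those labelled KO, a log2 change of 1.73 (SE 0.23, adjusted p = 0.00358). The second probes of Gbe1 and Stbd1 changed by 2.0 and 2.01. The exact two-sided permutation p was 0.0286 for each of the 4. With slide as a fixed block, which gives the change within slide 3, the changes were 1.40 for Gbe1 (adjusted p = 0.193), 1.50 for Ugp2 (adjusted p = 0.119), 1.06 for Pygl (adjusted p = 0.284) and 1.75 for Stbd1 (adjusted p = 0.0808).

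The synthases and the phosphatase subunits did not pass the test in gWAT. Gys1 read 3.26, 3.36, 3.56 and 3.78 on the control arrays and 4.40, 4.04, 3.93 and 3.33 on those labelled KO, with replicate 4 inside the control range. Its log2 change was 0.43 (SE 0.23, adjusted p = 0.214), and without that replicate it was 0.63 and passed (adjusted p = 0.0411). Gys2 read 2.20, 3.05, 3.48 and 2.37 and then 3.68, 3.52, 3.33 and 2.59, a log2 change of 0.50 (SE 0.33, adjusted p = 0.319). Ppp1r3b changed by -0.60 (SE 0.31, adjusted p = 0.197), but by -0.90 without replicate 1 of the controls, its lowest control array (adjusted p = 0.0312). Ppp1r3c and Pygb changed by -0.23 and -0.22 (adjusted p = 0.61 and 0.547). The hepatocyte marker Alb read 5.26, 7.86, 3.67 and 3.43 on the gWAT control arrays and 0.89, 6.28, 5.98 and 4.08 on those labelled KO. Gys2, Pygl and Ppp1r3b are also genes of liver, and the part of hepatocyte RNA in their gWAT levels was not tested. In BAT, Alb, Ttr and Apoa1 were not well above background on any control array, and Serpina1a was on all 4, at log2 levels from -1.68 to -0.78.

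The change with genotype differed between the tissues for 7 of the 9 members in the test of the difference itself (limma interaction over all 16 arrays), against 48.3% of all genes tested, of which 27.3% had the more positive change in gWAT and 21.0% the more positive change in BAT. It was more positive in gWAT for Gbe1 by 2.33 (SE 0.36, adjusted p = 1.47e-04), for Gys2 by 2.32 (SE 0.38, adjusted p = 2.40e-04) and for Ppp1r3c by 2.01 (SE 0.44, adjusted p = 0.00182). The difference was 1.83 for Pygl, 1.81 for Gys1 and 1.71 for Ugp2. Stbd1 went the other way, with a difference of -1.39 (SE 0.28, adjusted p = 0.00105), since its rise was larger in BAT. Pygb and Ppp1r3b did not pass (0.43 and 0.52, adjusted p = 0.276 and 0.251). Stbd1 was thus the member that passed as higher in both tissues, and Gbe1 the member that passed as lower in BAT and higher in gWAT. The BAT call of Gbe1 was lost under quantile normalization, spike-in scaling and all 16 arrays in one fit (limma adjusted p = 0.0885, 0.989 and 0.0755). With slide as a fixed block the gWAT calls of both genes were lost.

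**Figure D2:**
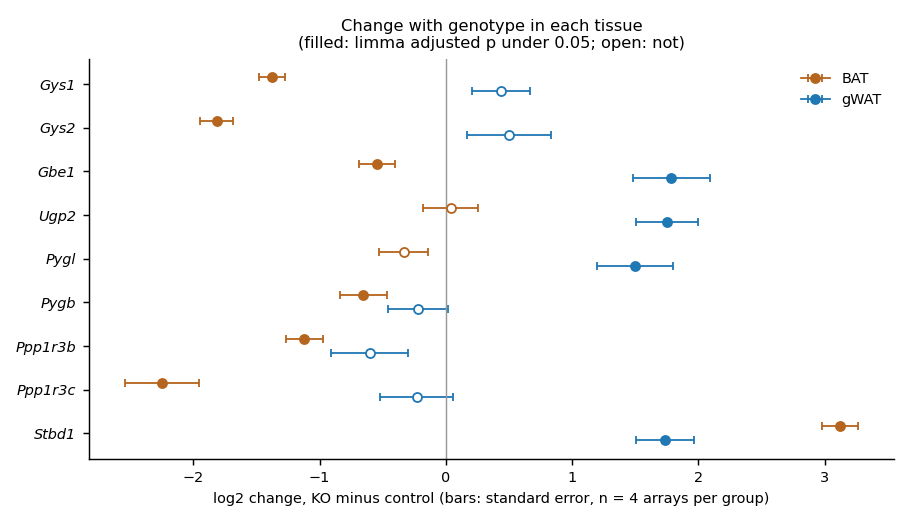
Log2 change of each glycogen gene, KO minus control, in BAT (brown) and gWAT (blue, by label). Points are limma estimates from 4 arrays per group, bars are SEs, and filled points passed an adjusted p of 0.05. The BAT points reach from -2.25 for Ppp1r3c to 3.12 for Stbd1, and the 4 filled gWAT points lie between 1.50 and 1.78.

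Set in order, the 4 groups gave 4 kinds of pattern. For Gys1, Gys2, Ppp1r3b and Ppp1r3c the BAT controls stood alone at the top, above the range of every other group, and neighbours further down overlapped. For Gbe1, Ugp2 and Pygl the gWAT controls stood alone at the bottom, by 1.41 to 1.48 below the next group, and the other 3 groups overlapped their neighbours. The gap between gWAT labelled KO and BAT controls was 0.19 for Gbe1 and 0.31 for Pygl, within the ranges of the arrays. For Stbd1 both control groups lay together at the bottom, 0.025 apart, with gWAT labelled KO 1.73 above them and BAT of KO mice a further 1.36 above that. Pygb was ordered by tissue, with both gWAT groups, which overlapped, above both BAT groups, which did not.

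Paired forms were also compared on the same array, a measure chosen after the data were seen in which any scaling of an array cancels. There were 6 such tests, of 3 pairs in 2 tissues, and none passed after adjustment. The smallest exact p that 4 arrays against 4 allow is 0.0286, so after adjustment over 6 tests even groups fully apart need not pass. That none passed therefore does not show that a pair kept its balance. The value of Pygl minus Pygb shifted by 1.72 (SE 0.18) in gWAT between controls and arrays labelled KO, and the groups did not overlap (exact two-sided permutation p = 0.0286, adjusted p = 0.0857 over the 6). That of Ppp1r3c minus Ppp1r3b shifted by -1.13 (SE 0.31) in BAT, again without overlap (exact p = 0.0286, adjusted p = 0.0857). For Gys2 minus Gys1 the shift was -0.44 in BAT (exact p = 0.0571, adjusted p = 0.114) and 0.07 in gWAT (exact p = 0.83). Pygl minus Pygb shifted by 0.32 in BAT (exact p = 0.114) and Ppp1r3c minus Ppp1r3b by 0.37 in gWAT (exact p = 0.314).

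Beyond the members, 27 other genes of glycogen metabolism were listed, namely the primer glycogenin, phosphoglucomutases, phosphorylase kinase, phosphatase and synthase kinase genes and those of glucose release. In BAT 24 of them were tested, of which 10 fell and 3 rose, a share of 54.2% called against the 61.5% of all genes. The split by direction turned with the scaling, since 5 were lower and 8 higher with spike-in scaling and 17 lower and 0 higher with Actb and Rplp0 scaling. Of all 14270 genes, 1841 were lower and 7234 higher with spike-in scaling, and 8892 lower and 1917 higher with Actb and Rplp0 scaling. The median log2 change of the 24 in BAT was -0.25. Subunits of phosphorylase kinase, the enzyme that activates phosphorylase, were among those that fell, with Phka2 at -1.68 (SE 0.12, adjusted p = 1.28e-05), Phkb at -0.83 and Phkg2 at -0.79. Phkb did not pass with spike-in scaling (-0.29, adjusted p = 0.136), and Phkg2 passed neither there (-0.24, adjusted p = 0.253) nor with slide as a fixed block (-0.42, adjusted p = 0.144). Phka1 and Phkg1 did not pass in BAT (-0.29, adjusted p = 0.0529, and 0.25, adjusted p = 0.459). A further phosphatase-targeting subunit, Ppp1r3d, changed by -1.63 (SE 0.13, adjusted p = 1.93e-05). The catalytic subunits of protein phosphatase 1 went both ways, with Ppp1ca at -0.67, Ppp1cb at -0.47 and Ppp1cc at 0.46, but Ppp1ca and Ppp1cb did not pass with spike-in scaling (-0.13 and 0.070, adjusted p = 0.296 and 0.641), nor Ppp1cc with Actb and Rplp0 scaling (-0.13, adjusted p = 0.243). Gsk3a, a kinase that inhibits glycogen synthase, changed by -0.88 (SE 0.08) and Nhlrc1, the ubiquitin ligase malin, by -0.93. Pgm1, which interconverts glucose-1-phosphate and glucose-6-phosphate, changed by -1.14 (SE 0.13). The other phosphoglucomutases listed, Pgm2 and Pgm2l1, passed as higher (0.68 and 0.41, limma adjusted p = 0.0261 and 0.0253).

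The primer of glycogen synthesis moved in gWAT. There, 26 of the 27 genes were tested, of which 2 rose and 2 fell, 15.4% against the 17.8% of all genes. Glycogenin (Gyg), on which new glycogen is started, read 4.48, 4.99, 5.25 and 5.28 on the control arrays and 6.81, 6.49, 6.29 and 5.94 on those labelled KO, a log2 change of 1.38 (SE 0.24, adjusted p = 0.00864). It did not pass in BAT, with a change of -0.03. Gyg in BAT passed as lower with Actb and Rplp0 scaling (-0.62, limma adjusted p = 0.00296) and as higher with spike-in scaling (0.51, limma adjusted p = 0.00419). Ppp1r3f changed by 1.29 (adjusted p = 0.0167), but it was well above background on 3 of the 4 control arrays, entered the test through the arrays labelled KO alone, and changed by 0.55 after normexp background correction (adjusted p = 0.0684). Phka2 changed by -0.70 (adjusted p = 0.0144), and by -0.26 with spike-in scaling (adjusted p = 0.328). Phkg1 changed by -0.97 (adjusted p = 0.029) and lost its call under 9 of 26 alternatives, among them spike-in scaling (-0.53, adjusted p = 0.189), the methods' t-test (adjusted p = 0.0666) and leaving out replicate 2 labelled KO or control replicate 2, 3 or 4 (adjusted p from 0.0543 to 0.0713). With slide as a fixed block none of the 26 passed, and 184 of all 14135 genes did. The muscle phosphorylase Pygm did not pass in either tissue (0.63 in BAT and -0.23 in gWAT). Its BAT values of 0.78, -1.82, -0.71 and -1.64 in KO mice were highest on replicate 1, where the muscle marker Ckm was also highest (1.19, -5.72, -1.76 and -6.20).

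**Figure D3:**
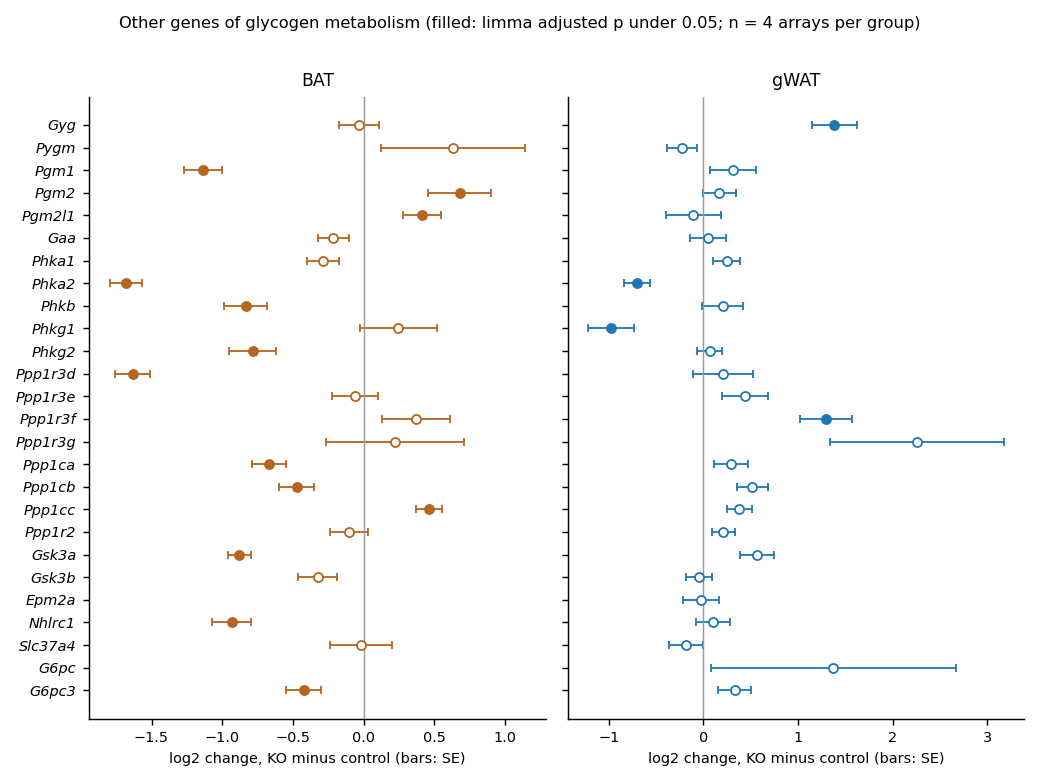
Log2 change, KO minus control, of the other glycogen genes tested in BAT (left) and gWAT (right, by label). Points are limma estimates from 4 arrays per group, bars are SEs, and filled points passed an adjusted p of 0.05. The filled points are 13 in BAT, 10 of them below 0, and 4 in gWAT, with Gyg and Ppp1r3f to the right of 0.

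Members varied together between arrays of a group in gWAT. Replicate 1 of the gWAT controls had the lowest level of its group for all 9 members, and it was the lowest for 44.2% of all genes tested. That array had the highest share of probes well above background of the 16 arrays, 62.2%. Among the arrays labelled KO, replicate 4 was lowest for 8 of the 9 members (47.8% of all genes), the exception being Ppp1r3b, and replicate 1 was highest for 8 of the 9 (35.3% of all genes), the exception being Ppp1r3c. No BAT array was lowest or highest for more than 5 members.

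For each member, the 2 genes nearest to it among those compared are named, so small differences follow from the choice. The root-mean-square spread of a member about its own mean ran from 0.595 for Gys1 to 1.329 for Stbd1. With each gene centred on its own mean over the 16 arrays, the gene most like Gys1 was Ilrun, with a root-mean-square difference of 0.141, followed by Prkaca, a catalytic subunit of protein kinase A, at 0.153. The median such difference from Gys1 over the 13576 genes compared was 0.692. Gys2 was nearest to Pyurf (0.269) and Abcd3 (0.281), Ugp2 to Nus1 (0.227) and Myo5a (0.240), and Pygb to Aoc3 (0.213) and Rai2 (0.219). Gbe1 was nearest to Gm6498 (0.266) and Gm8709 (0.267) and Pygl to Gm12070 (0.211) and Gm6981 (0.222). Ppp1r3b was nearest to Vax2 (0.265) and Mcee (0.322), Ppp1r3c to Atl2 (0.358) and Retsat (0.376), and Stbd1 to 9130401M01Rik (0.256) and Fjx1 (0.442). All points share the same arrays and the same scaling.

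Scaling moved the members together with all genes. Relative to the 75th percentile, spike-in scaling raised the median change of all genes by 0.54 in BAT and by 0.44 in gWAT, and scaling by Actb and Rplp0 moved it by -0.59 in BAT and by -0.06 in gWAT. The members called were then 4 lower and 2 higher in BAT under spike-in scaling and 8 lower and 1 higher under Actb and Rplp0, against 6 and 1. In gWAT they were 6 higher under spike-in scaling, with Gys1 and Gys2 added. Of all 14270 genes tested in BAT, 1841 passed as lower and 7234 as higher under spike-in scaling. Under Actb and Rplp0 these counts were 8892 and 1917. Of all 14135 genes tested in gWAT, 4836 passed as higher under spike-in scaling. Set against the median of all genes, which such a scaling leaves as it is, the change in BAT was -2.17 for Ppp1r3c, -1.73 for Gys2, -1.30 for Gys1, -1.04 for Ppp1r3b and 3.20 for Stbd1. It was -0.46 for Gbe1, -0.57 for Pygb, -0.25 for Pygl and 0.12 for Ugp2. In gWAT, the changes set against that median were 1.74 for Gbe1, 1.71 for Ugp2, 1.69 for Stbd1 and 1.45 for Pygl. Gys1, Gys2, Ppp1r3b, Ppp1r3c and Stbd1 kept their direction and passed in BAT under all 26 alternatives run, and Gbe1, Ugp2, Pygl and Stbd1 kept their direction in gWAT under all 26.

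**Figure D4:**
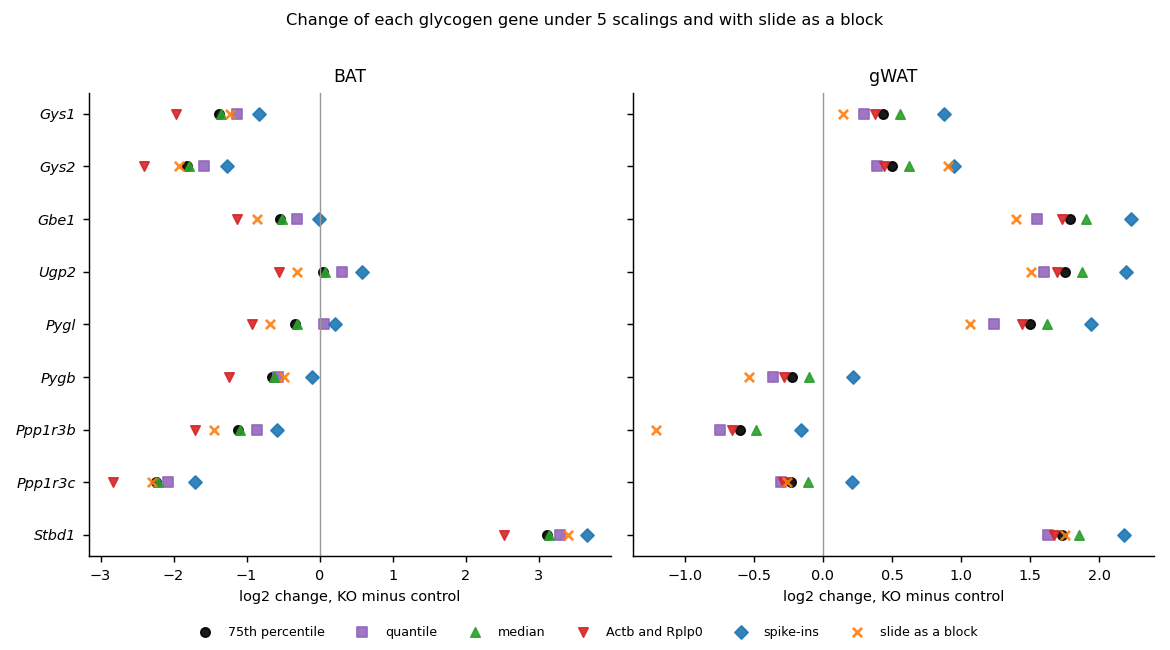
Log2 change of each glycogen gene, KO minus control, in BAT (left) and gWAT (right, by label) under 5 scalings of the arrays and with slide as a block. Each symbol is the limma estimate from 4 arrays per group. In BAT, Ugp2 and Pygl lie on both sides of 0, whereas Gys1, Gys2, Ppp1r3b and Ppp1r3c lie below 0 and Stbd1 above 0 under every setting shown.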

How the data were processed

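The authors deposited scanner output of 16 one-colour Agilent arrays (Feature Extraction 10.7.1.1, per the labels) and a normalized table. The intensity used is the scanner's processed signal, background-subtracted per the file headers. Signals were divided by the 75th percentile of non-control probes and put on the log2 scale, and the authors' normalized values were close to the same ratio. Of 35886 probes with a RefSeq accession, 91.9% matched a symbol, and the brightest probe stood for a gene. Genes entered a test when every array of either group was well above background. Groups were compared with limma 3.58.1 in R 4.3.3, Benjamini-Hochberg adjusted over all genes tested (threshold 0.05), within a tissue on 8 arrays and between tissues on 16. Single values had exact permutation tests, and the steps were tested on simulated data. The number of arrays limits precision. The members and lists were chosen with earlier results of these data known. Named genes are all members, Pgam1, at most 10 other glycogen genes passing per tissue by adjusted p, and Gyg and Pygm; 1 listed gene is not reported here, and Phka1, Phkg1 in BAT, Alb, Ttr, Apoa1, Serpina1a, Ckm, Cpt1b and Cidea were added after their values were seen.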

Additional observations from a re-analysis of the deposited data

Results flagged for a closer look

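The change with genotype differed between gWAT and BAT in the interaction test for 7 members, gWAT minus BAT. The difference was 1.81 for Gys1, 2.32 for Gys2, 2.33 for Gbe1, 1.71 for Ugp2, 1.83 for Pygl, 2.01 for Ppp1r3c and -1.39 for Stbd1. Every gWAT direction rests on arrays in which Pgam1 itself went against the label. With slide as a fixed block, Ppp1r3c no longer passed (2.04, adjusted p = 0.0686), and the other 6 did.

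Ppp1r3b had 1 array that stood away from its group. In gWAT labelled KO it read 4.09 on replicate 1 and 3.48, 3.50 and 3.55 on the other arrays, a gap to the next array of 0.896 of the whole range, above the limit of 0.83 for 4 arrays. Of the 36 sets of 4 arrays checked, it was the only one past that limit, and chance alone gives about 1 in 20.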

How the results depend on the processing

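Under the alternatives run, the count of members called stayed between 6 and 9 in BAT (7 as reported), between 6 and 9 for the difference between tissues (7), and at 8 for the control tissues. In gWAT, 0 members passed with slide as a fixed block (4 as reported), and between 4 and 5 passed when any 1 array was left out. With the slide block 184 of all 14135 genes passed, against 2519 as reported. At an unadjusted p under 0.05, 4 members and 6 other glycogen genes passed in that limma fit, and the methods' t-test without the slide called 4 and 3 after adjustment. Of the other glycogen genes in gWAT (4 as reported), 8 passed with all 16 arrays in one fit, 2 with median centring, 13 with spike-in scaling, 0 with slide as a fixed block, and 3 to 8 when 1 array was left out, 8 without replicate 4 labelled KO. The count over all genes moved too. Of 14135 tested in gWAT, 1378 passed with median centring and 5077 with spike-in scaling. With all 16 arrays in one fit it was 4022 of 14125, and without replicate 4 labelled KO 3207 of 14369. The replicate numbers were not taken to pair the arrays, since in no pair of groups did all 4 same-numbered pairs correlate above 0.1 (range -0.15 to 0.45), although 3 of 4 did between the control tissues. With the replicate block 7 members passed in BAT and 3 in gWAT, where Pygl was at adjusted p = 0.0502.

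Directions that turned were mostly those of genes whose reported change was near 0, and Ugp2 and Gyg in BAT also passed after a turn. Actb and Rplp0 scaling turned Ugp2 in BAT to -0.55 (limma adjusted p = 0.0245), Ppp1cc in BAT to -0.13 and Stbd1 between control tissues to 0.31. Spike-in scaling gave 0.21 for Pygl, 0.51 for Gyg (limma adjusted p = 0.00419) and 0.070 for Ppp1cb in BAT. In gWAT it gave 0.22 for Pygb, 0.21 for Ppp1r3c and 0.22 for Pygm. Quantile normalization gave 0.065 for Pygl and 0.21 for Gyg in BAT, and 0.027 and 0.14 after normexp. Normexp background correction alone gave 0.0001 for Gyg in BAT. Slide as a fixed block gave -0.31 for Ugp2 and 0.16 for Gyg in BAT, 0.10 for Pygm in gWAT and -0.042 for the difference of Pygb between tissues, and slide as a random block gave -0.021 for Ugp2 and 0.0013 for Gyg in BAT. The mean of all probes gave 0.14 for Pygm in gWAT and 0.013 for Stbd1 between control tissues, where median centring gave 0.014. Leaving out 1 array moved Ugp2 in BAT between -0.090 and 0.22, Gyg between -0.14 and 0.028, and Stbd1 between control tissues between -0.095 and 0.069. The cause was not tested.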
